A study of Mus musculus with 12 samples.

Results

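The 39 genes described here encode the liver's extracellular matrix and the proteins that assemble, cross-link, degrade and signal through it. They comprise 10 collagen chains, 3 basement membrane proteins, 5 proteins of elastic fibres and cross-linking, 3 small proteoglycans, 6 matrix glycoproteins, 6 proteases and inhibitors, 5 growth factors and receptors, and the filament gene Vim. The list was named gene by gene, and a probe counted as a member when its RefSeq transcript belonged to a listed gene; the probe with the highest mean signal over the 12 arrays stood for the gene. All 39 were found among the 45616 genes and unnamed transcripts of the array, and all 39 were among the 26405 tested.

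Livers of male mice were profiled on 1-colour Agilent arrays in a layout of 2 genotypes by 2 treatments, with 3 mice and 3 arrays in each of the 4 groups. The genotypes were wild type and a knockout of Akp3, which encodes an intestinal alkaline phosphatase (IAP). The treated mice received the 5-residue peptide IIAEK at 600 mg per kg of body weight per day, given by mouth in 5 g/L carboxymethylcellulose sodium salt, and the vehicle mice received that solution alone. Mice were 7 weeks old per the series text, were dosed daily for 14 days and had an 8 h fast before the livers were collected; the source names of the IIAEK samples state weeks where the other labels state days. Dosing solution, fast and sex were thus shared by all 4 groups, and the knockout mice carried the Akp3-/- deletion. Because the tissue was whole liver, fewer cells of a type and less RNA per cell cannot be told apart in any value given here.

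In liver, most interstitial matrix is made by hepatic stellate cells and portal fibroblasts. Transforming growth factor beta, released from latent complexes in the matrix, drives these cells to make collagen, and platelet-derived growth factor drives them to divide. Fibrillar collagens form the scar of fibrosis, lysyl oxidases cross-link it, matrix metalloproteinases cut it, and tissue inhibitors of metalloproteinases (TIMPs) block that cutting. Sinusoidal vessels normally lack a dense basement membrane, and deposition of laminin and type IV collagen along them is a known feature of fibrosis.

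Of the 39 genes, 24 had an entry in the RefSeq promoter table of mouse build GRCm38.p6. The 250 bases before the annotated start are shown for a growth factor, a collagen chain, a protease inhibitor and a filament, members of different roles. Each holds CCAAT, the box bound by nuclear factor Y, on the printed strand or the opposite one. They are Tgfb2 (chr1:186705990-186706239, minus strand), Col1a2 (chr6:4505368-4505617, plus strand), Timp1 (chrX:20869916-20870165, plus strand) and Vim (chr2:13574061-13574310, plus strand). Each runs 5′ to 3′ in the gene's own direction, and capitals mark CCAAT and TATAAA on either strand.
Tgfb2: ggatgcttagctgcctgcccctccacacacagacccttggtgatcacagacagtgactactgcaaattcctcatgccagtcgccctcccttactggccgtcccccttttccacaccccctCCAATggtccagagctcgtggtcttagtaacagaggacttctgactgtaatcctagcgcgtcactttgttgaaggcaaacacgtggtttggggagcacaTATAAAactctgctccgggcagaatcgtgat
Col1a2: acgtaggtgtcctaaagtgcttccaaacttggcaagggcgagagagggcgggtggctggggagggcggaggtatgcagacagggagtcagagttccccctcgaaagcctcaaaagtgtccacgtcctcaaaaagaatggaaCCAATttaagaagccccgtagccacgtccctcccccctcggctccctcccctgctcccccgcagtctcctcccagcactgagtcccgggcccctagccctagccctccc
Timp1: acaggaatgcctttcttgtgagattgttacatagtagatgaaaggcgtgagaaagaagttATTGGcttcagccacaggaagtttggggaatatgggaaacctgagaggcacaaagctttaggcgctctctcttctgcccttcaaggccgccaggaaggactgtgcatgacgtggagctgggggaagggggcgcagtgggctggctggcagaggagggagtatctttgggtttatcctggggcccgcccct
Vim: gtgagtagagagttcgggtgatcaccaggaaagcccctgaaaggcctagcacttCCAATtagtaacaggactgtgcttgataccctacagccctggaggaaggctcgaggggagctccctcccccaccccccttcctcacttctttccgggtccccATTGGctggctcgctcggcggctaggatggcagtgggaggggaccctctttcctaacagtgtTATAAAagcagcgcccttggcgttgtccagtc
The leftmost base of the CCAAT match stood at -130 in Tgfb2, -109 in Col1a2, -190 in Timp1, and -196 and -94 in Vim. The base before the start counts as -1. At -190 in Timp1 and -94 in Vim the printed strand reads ATTGG, so CCAAT lies on the opposite strand. TATAAA stood at -31 in Tgfb2 and -32 in Vim. Searched on both strands, CCAAT was present in 11 of the 24 promoters (45.8%) and in 34.5% of all 27025 promoters of this length. The GC box GGGCGG was present in 14 of 24 (58.3%) against 32.9%, TATAAA in 6 of 24 (25.0%) against 13.0%, and the core Smad motif CAGACA in 6 of 24 (25.0%) against 17.1%. The TEAD motif GGAATG was found in 4 of 24 (16.7%) against 12.6%, the AP-1 motif TGANTCA in 2 (8.33%) against 6.87%, the E-box CACGTG in 1 (4.17%) against 6.05%, and the CArG box in 0 against 1.40%. TGANTCA and the other motifs do not share a core, but GGGCGG matches can overlap each other. A match describes letters only.

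Signals were read as log2 of each probe's processed signal relative to the 75th percentile of all probes on its array, so that 0 is the 75th percentile; levels are not compared between genes, which have different probes. The 75th percentile was 315 to 529 across arrays, 56.8% to 61.9% of probes were well above background and none was saturated. All 12 of 12 hepatocyte markers were above background on every array. Both Akp3 probes were not well above background on any array, wild type included, so the liver data give no check of the genotype labels. Of the 12 arrays, 4 stood apart on the first principal component, which held 55.4% of the variance: wild-type vehicle replicates 2 and 3 and knockout vehicle replicates 1 and 3, at 74.1 to 88.1 against -57.3 to -11.3 for the other 8. Wild-type vehicle replicate 1 and knockout vehicle replicate 2 lay with the IIAEK arrays. The 75th percentile of the 4 arrays overlapped that of the other 8 (444 to 529 against 315 to 481), and their share of probes above background was larger (60.9% to 61.9% against 56.8% to 60.4%). The part of signal or depth in the matrix values was not tested. The arrays lay on 2 slides, with replicate 1 of each group on slide 1 and replicates 2 and 3 on slide 2.

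Matrix genes had lower mean values in livers of IIAEK mice than in those of vehicle mice in both genotypes, and higher mean values in knockout than in wild-type livers. Under IIAEK in wild type, 38 of 39 genes had a lower mean than under vehicle, with a median log2 change of -1.10 against 0.046 for all genes tested, of which 44.8% were lower. In the knockout, 37 of 39 were lower, with a median of -0.72 against 0.044, where 44.3% of all genes were lower. No member passed an adjusted p below 0.05 in limma, with Benjamini-Hochberg adjustment over all 26405 genes, in either genotype; the adjusted p ran from 0.393 to 0.919 in wild type and from 0.664 to 0.996 in the knockout. The background was 0.00379% of genes called in wild type (1 gene, Tagln) and 0% in the knockout. At an unadjusted p below 0.05, 18 members were lower in wild type and 2 in the knockout, against 6.63% and 2.67% of all genes. All 3 IIAEK arrays lay below all 3 vehicle arrays for 5 members in wild type (Fbn1, Eln, Lox, Timp3 and Tgfb1) and for 2 in the knockout (Postn and Tgfb2), against 5.70% and 6.25% of all genes, and above them for 1 in the knockout (Fn1), against 8.77%.

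**Figure D1:**
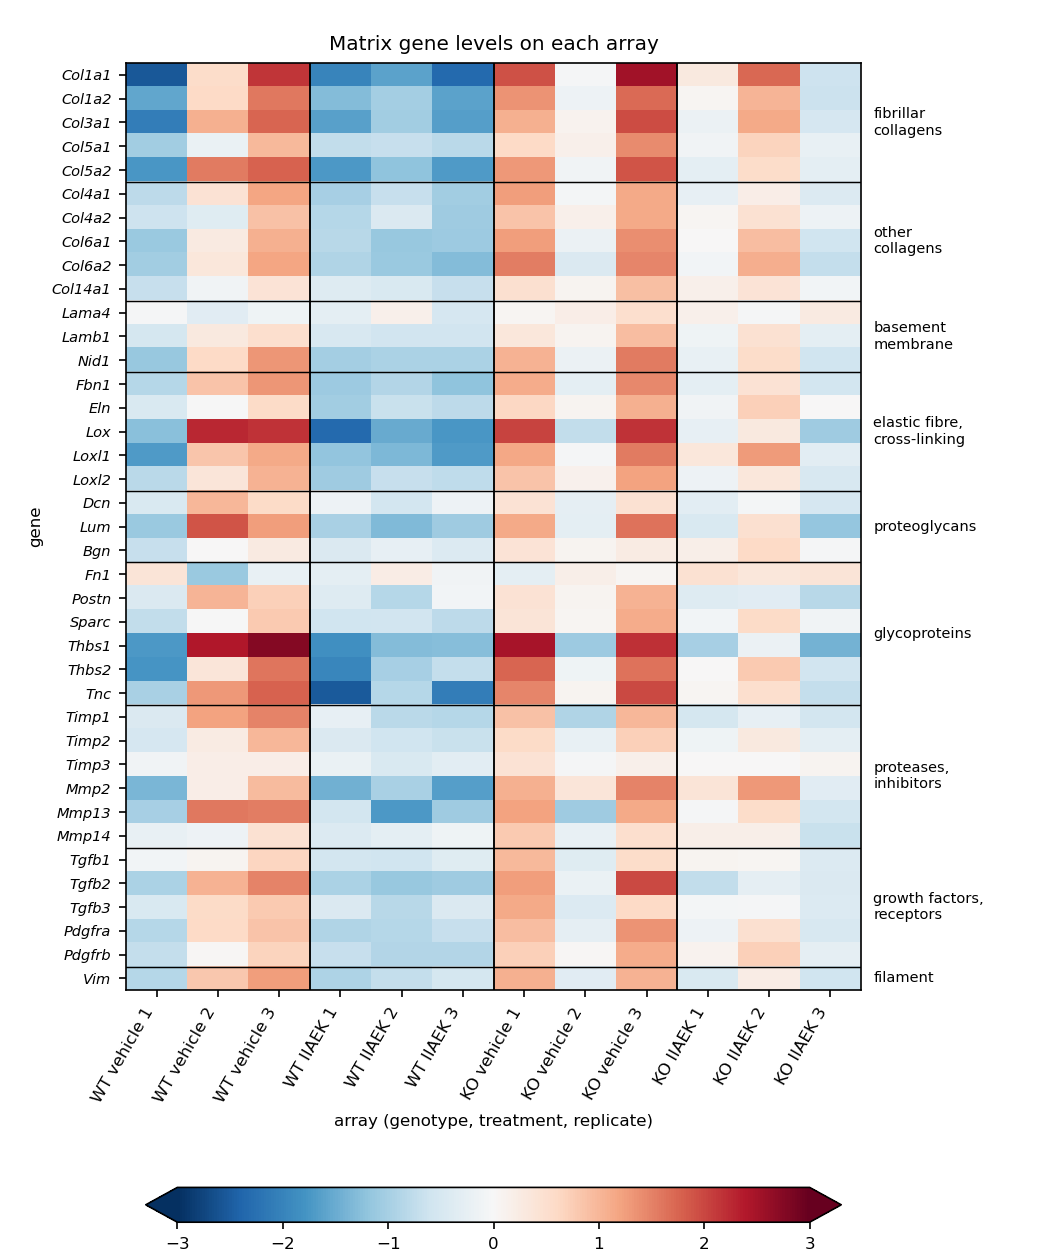
Log2 level of each of the 39 genes (rows, grouped by role) on each of the 12 arrays (columns, 4 groups of 3 separated by lines), as the difference from the gene's own mean over the 12 arrays; red is higher and blue lower. Wild-type vehicle replicate 1 has the blue colours of the 3 wild-type IIAEK arrays, while vehicle replicates 2 and 3 in wild type and 1 and 3 in the knockout are red in most rows.

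The array-level values showed where these differences lay. The median over the 39 genes of each gene's deviation from its 12-array mean was -0.85, 0.43 and 1.04 in wild-type vehicle replicates 1 to 3 and -0.90, -0.84 and -0.85 with IIAEK. It was 1.04, -0.12 and 1.14 in knockout vehicle replicates and -0.093, 0.45 and -0.47 with IIAEK. The 4 arrays that stood apart were thus high, and wild-type vehicle replicate 1 was as low as the wild-type IIAEK arrays. The 3 knockout IIAEK arrays were spread around the middle, and replicate 2 of these, at 0.45, exceeded wild-type vehicle replicate 2, at 0.43. In 19 of the 39 genes the 4 arrays all exceeded the other 8, which held for 10.3% of all genes, and in 0 were they all below, against 12.8%. Wild-type vehicle replicate 1 was lower than its other two replicates in 37 of 39 genes and lay within 0.5 log2 units of the wild-type IIAEK mean in 34. Knockout vehicle replicate 2 was lower than the other two knockout vehicle replicates in 37 of 39 and lay within the range of the knockout IIAEK arrays in 33.

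The IIAEK differences depended on which vehicle arrays were used. Without the 4 arrays, which leaves 1 vehicle array per genotype, the median log2 change was -0.024 in wild type, with 22 of 39 genes lower. In the knockout it was 0.13, with 11 of 39 lower. The 4 arrays were picked from these same data, and the vehicle arrays kept are those that lay with the IIAEK arrays. Small medians therefore follow from the choice and are no separate evidence. The same limit holds for every change given below without the 4 arrays. Without wild-type vehicle replicate 1 instead, the wild-type median was -1.69 and 26 of 39 genes were called lower, against 14.9% of all genes. That vehicle array lay with the IIAEK arrays, so a larger difference follows from leaving it out and is no separate evidence either. By slide, the wild-type median was 0.028 on slide 1 (1 array a group) and -1.65 on slide 2 (2 arrays a group), and the knockout median was -1.10 and -0.46. Averaged over genotypes, 38 of 39 genes were lower with IIAEK (43.9% of all genes), with a median of -0.93; 0 were called (limma, 0% of all genes), 26 had an unadjusted p below 0.05 (lower in 11.1% of all genes), and the median was 0.064 without the 4 arrays. With wild-type vehicle replicate 1 left out, 32 were called against 24.9% of genes, and with knockout vehicle replicate 2 left out, 10 against 9.86%. With arrays weighted by their fit, 35 were called against 30.6%, while in the knockout alone the weights gave 2 against 3.65%. The weights were lowest for these same vehicle arrays, at 0.20 and 0.37. Each of these settings drops or down-weights vehicle arrays that lay with the IIAEK arrays, so added calls follow from that and are no separate evidence. The difference between the genotypes' IIAEK responses, tested as an interaction, had a median of 0.30, which was -1.06 on slide 1 and 1.01 on slide 2; 0 of 39 were called (limma, 0% of all genes) and none had an unadjusted p below 0.05 (smallest 0.225; 1.56% of all genes).

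**Figure D2:**
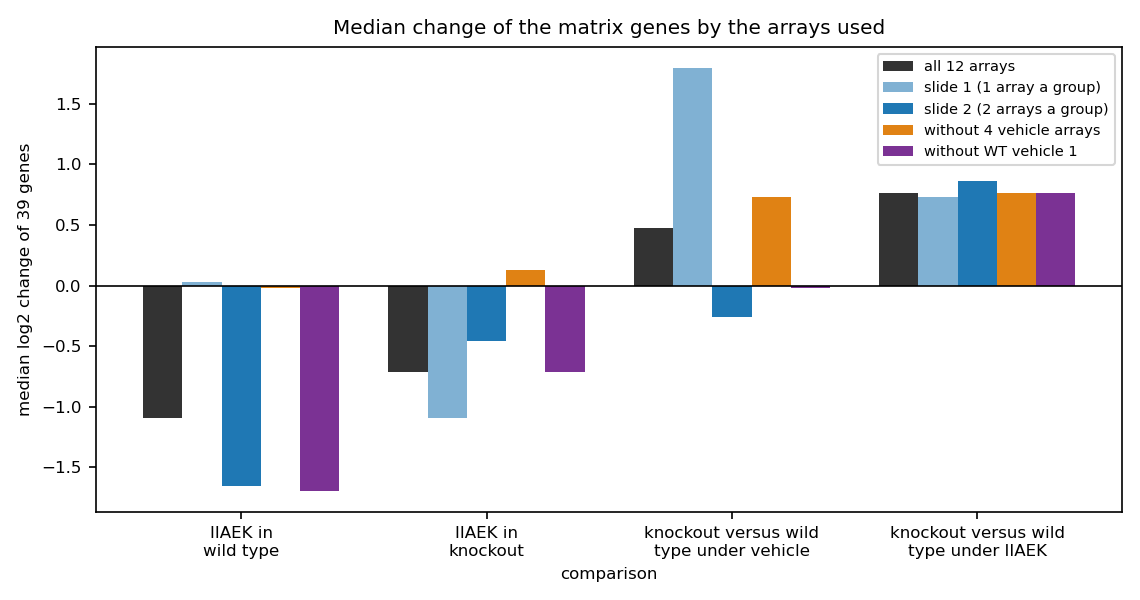
Median log2 change of the 39 genes (bars, y axis) in 4 comparisons (x axis). Bars use all 12 arrays, each slide alone, all but the 4 vehicle arrays that stood apart, or all but wild-type (WT) vehicle replicate 1. The IIAEK bars in wild type run from -1.69 to 0.028, and knockout versus wild type under IIAEK stands at 0.73 on slide 1 and 0.86 on slide 2. Its other 3 bars are the same value, 0.76, because the means in that comparison hold no vehicle array.

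Knockout livers held higher matrix values than wild-type livers under IIAEK, a comparison whose means hold none of the vehicle arrays. Its standard errors and p-values come from the fit of all arrays, so they include the spread among the vehicle arrays. Of 39 genes, 37 had a higher mean in the knockout, with a median log2 difference of 0.76 against -0.022 for all genes, of which 52.7% were lower in the knockout. In 29 of 39 the 3 knockout IIAEK arrays all exceeded the 3 wild-type IIAEK arrays, which held for 13.0% of all genes. No member was called (limma, adjusted p 0.628 to 0.996; 0.00757% of all genes called), and 10 had an unadjusted p below 0.05 with a higher knockout value, against 3.30% of genes. The median was 0.73 on slide 1 and 0.86 on slide 2, and 0.55 to 0.98 with each array left out in turn. The lowest of these came without knockout IIAEK replicate 2, which was the highest knockout IIAEK array in 34 of 39 genes. In 28 of 39 genes all 6 knockout arrays, with either treatment, exceeded all 3 wild-type IIAEK arrays, against 5.54% of all genes; this order was counted after the values had been seen. The comparison shares its wild-type IIAEK arrays with that of IIAEK in wild type.

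Under vehicle the genotypes overlapped in 38 of 39 genes. The knockout mean was higher in 36 of 39 genes with a median log2 difference of 0.47 (-0.053 for all genes, of which 56.8% were lower), yet the groups did not overlap in 1 gene, Lama4, against 3.15% of all genes. No member was called (limma, 0.00379% of all genes) and 0 had an unadjusted p below 0.05 (higher in 2.83% of genes). The median was 1.79 on slide 1 and -0.26 on slide 2, and -0.024 without wild-type vehicle replicate 1. Averaged over treatments, 37 of 39 genes were higher in the knockout (55.5% of all genes were lower) with a median of 0.63; 0 were called (limma, 0.0227% of all genes) and 12 had an unadjusted p below 0.05 against 6.88% of genes. Labels give separate mice per group, so the spread between arrays includes that between animals.

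**Figure D3:**
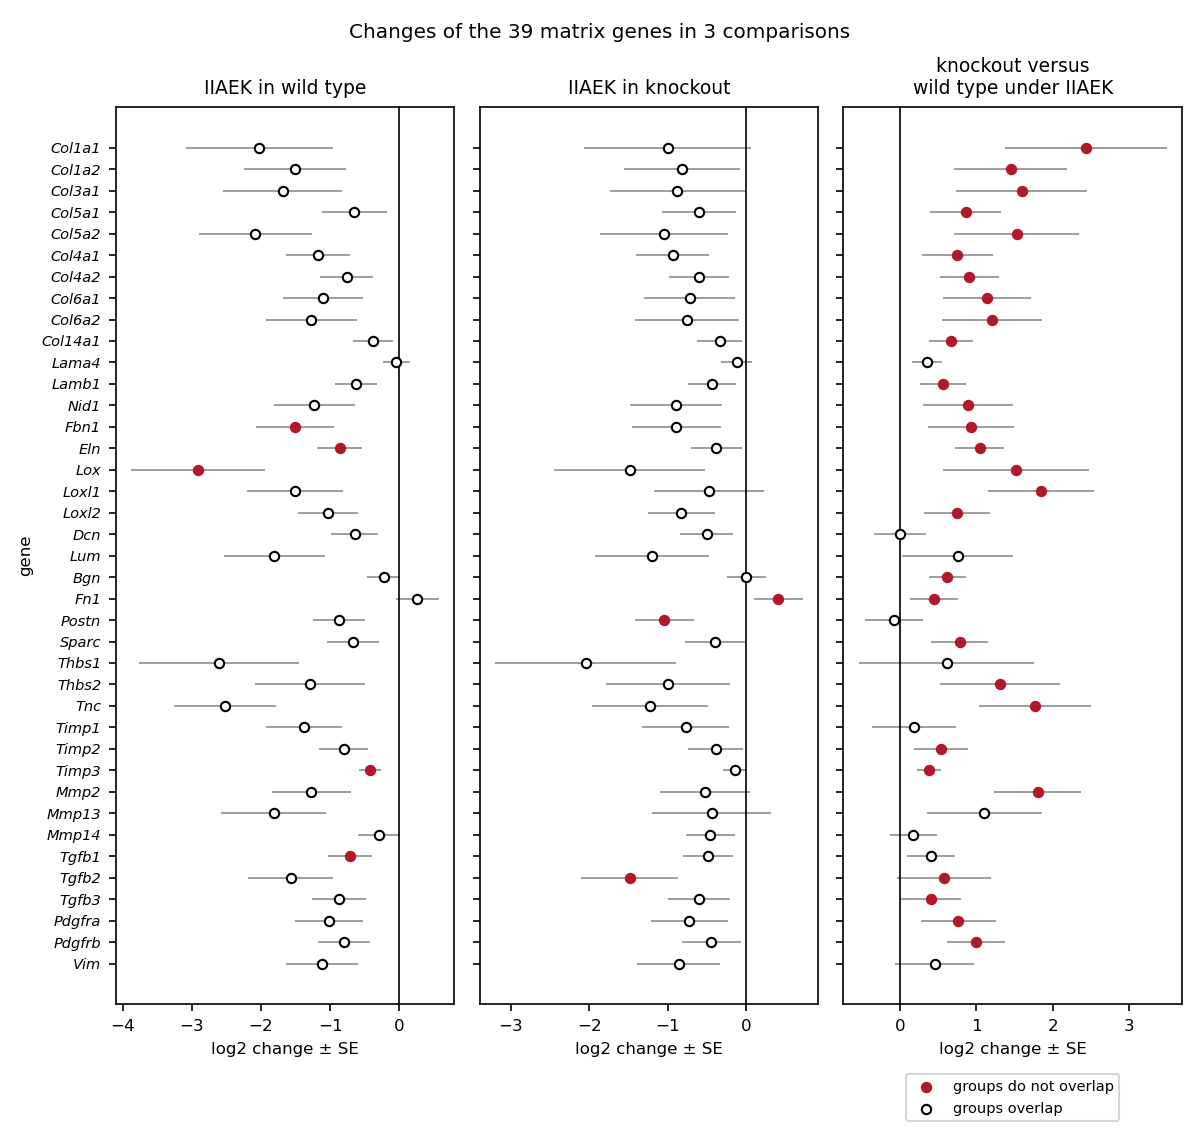
Log2 change of each of the 39 genes (rows) with its standard error (bars) for IIAEK in wild type, IIAEK in knockout, and knockout versus wild type under IIAEK. Filled points mark genes whose 3 arrays of one group all lie on one side of the 3 of the other. They number 5, 3 and 29 in the 3 panels. Of all genes, 5.70% lay wholly lower with IIAEK in wild type. In the knockout 6.25% lay wholly lower and 8.77% wholly higher, and the 3 filled genes there include both directions. Under IIAEK 13.0% of all genes lay wholly higher in the knockout.

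The 3 transforming growth factor beta ligands had lower means with IIAEK in both genotypes. Tgfb2 stood at -3.50, -1.51 and -1.07 with vehicle and -3.49, -3.69 and -3.62 with IIAEK in wild-type livers, and at -1.29, -2.75 and -0.57 with vehicle and -3.29, -2.81 and -2.97 with IIAEK in knockout livers. The 3 knockout IIAEK arrays lay below all 3 knockout vehicle arrays, an order found in 6.25% of all genes. In wild type, vehicle replicate 1 lay among the IIAEK arrays. Its log2 change was -1.57 (SE 0.62) in wild type and -1.49 (SE 0.62) in the knockout, with limma adjusted p of 0.393 and 0.664. Without the 4 arrays these changes were -0.10 and -0.27. Tgfb1, the ligand most studied in fibrosis, stood at -0.46, -0.29 and 0.26 with vehicle and -0.92, -0.98 and -0.74 with IIAEK in wild-type livers, and at 0.59, -0.75 and 0.18 with vehicle and -0.31, -0.32 and -0.79 with IIAEK in knockout livers. Its 3 wild-type IIAEK arrays were below all 3 vehicle arrays and the change was -0.71 (SE 0.32), adjusted p 0.393. In the knockout, vehicle replicate 2 lay within the IIAEK range. Tgfb3 stood at -1.44, -0.41 and -0.21 with vehicle and -1.42, -1.82 and -1.43 with IIAEK in wild-type livers, and at 0.14, -1.39 and -0.40 with vehicle and -1.03, -1.03 and -1.40 with IIAEK in knockout livers. In both genotypes 1 vehicle array lay within the IIAEK range and the other two above it.

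Pdgfra and Pdgfrb, the platelet-derived growth factor receptors of fibroblasts and stellate cells, had changes of -1.02 (SE 0.49) and -0.81 (SE 0.38) with IIAEK in wild type and of -0.72 (SE 0.49) and -0.44 (SE 0.38) in the knockout. Under IIAEK both were higher in the knockout on all 3 arrays, by 0.76 (SE 0.49) and 0.996 (SE 0.38) log2 units. The adjusted p for Pdgfrb in that comparison was 0.628 in limma. Pdgfrb ranged from -0.13 to 0.069 in wild-type IIAEK livers and from 0.47 to 1.47 in knockout IIAEK livers.

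All 5 fibrillar collagen genes had lower means with IIAEK in both genotypes and higher means in the knockout under both treatments, and none was called. Col1a2, the second chain of type I collagen, stood at 1.72, 3.88 and 4.85 with vehicle and 1.99, 2.26 and 1.68 with IIAEK in wild-type livers, and at 4.62, 3.13 and 4.98 with vehicle and 3.34, 4.30 and 2.65 with IIAEK in knockout livers. Wild-type vehicle replicate 1 lay inside the wild-type IIAEK range, and every knockout array exceeded every wild-type IIAEK array. The change with IIAEK was -1.51 (SE 0.74) in wild type, 2.84-fold lower (adjusted p 0.401), and -0.82 (SE 0.74) in the knockout. Col3a1, the type III chain that accompanies type I in early scar, stood at 1.13, 4.27 and 4.94 with vehicle and 1.58, 2.17 and 1.54 with IIAEK in wild-type livers, and at 4.26, 3.30 and 5.15 with vehicle and 3.03, 4.34 and 2.70 with IIAEK in knockout livers. It followed the same order, with wild-type vehicle replicate 1 the lowest of all 12 arrays. Its change was -1.68 (SE 0.86) in wild type, and 0.63 without the 4 arrays.

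Col5a2, a type V chain of the fibril core, stood at -6.15, -2.84 and -2.63 with vehicle and -6.13, -5.61 and -6.11 with IIAEK in wild-type livers, and at -3.10, -4.52 and -2.51 with vehicle and -4.70, -3.86 and -4.71 with IIAEK in knockout livers. It was not well above background on any wild-type IIAEK array or on 1 wild-type vehicle array, so only a bound can be given there. The vehicle mean was at least 2.19-fold higher than the IIAEK mean in wild type (adjusted p 0.393 in limma). Under IIAEK the knockout mean was at least 1.49-fold higher than the wild-type mean. The first bound rests on vehicle replicates 2 and 3, since replicate 1, at -6.15, was no higher than any wild-type IIAEK array. Without the 4 arrays the wild-type change was 0.20. The bound sets the mean of the brighter group, including any array not above background at its measured value, against the lowest signal found well above background on each dim array, or the probe's own signal where that is higher. The remaining fibrillar genes, Col1a1 and Col5a1, had changes of -2.03 (SE 1.06) and -0.65 (SE 0.47) with IIAEK in wild type. Col1a1, the first chain of type I collagen, had a knockout excess under IIAEK of 2.44 (SE 1.06) log2 units or 5.41-fold, with an adjusted p of 0.628 in limma; it was singled out after its values had been seen. Its wild-type IIAEK arrays stood at -0.84, -0.47 and -1.20 and its knockout IIAEK arrays at 1.44, 2.86 and 0.51.

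**Figure D4:**
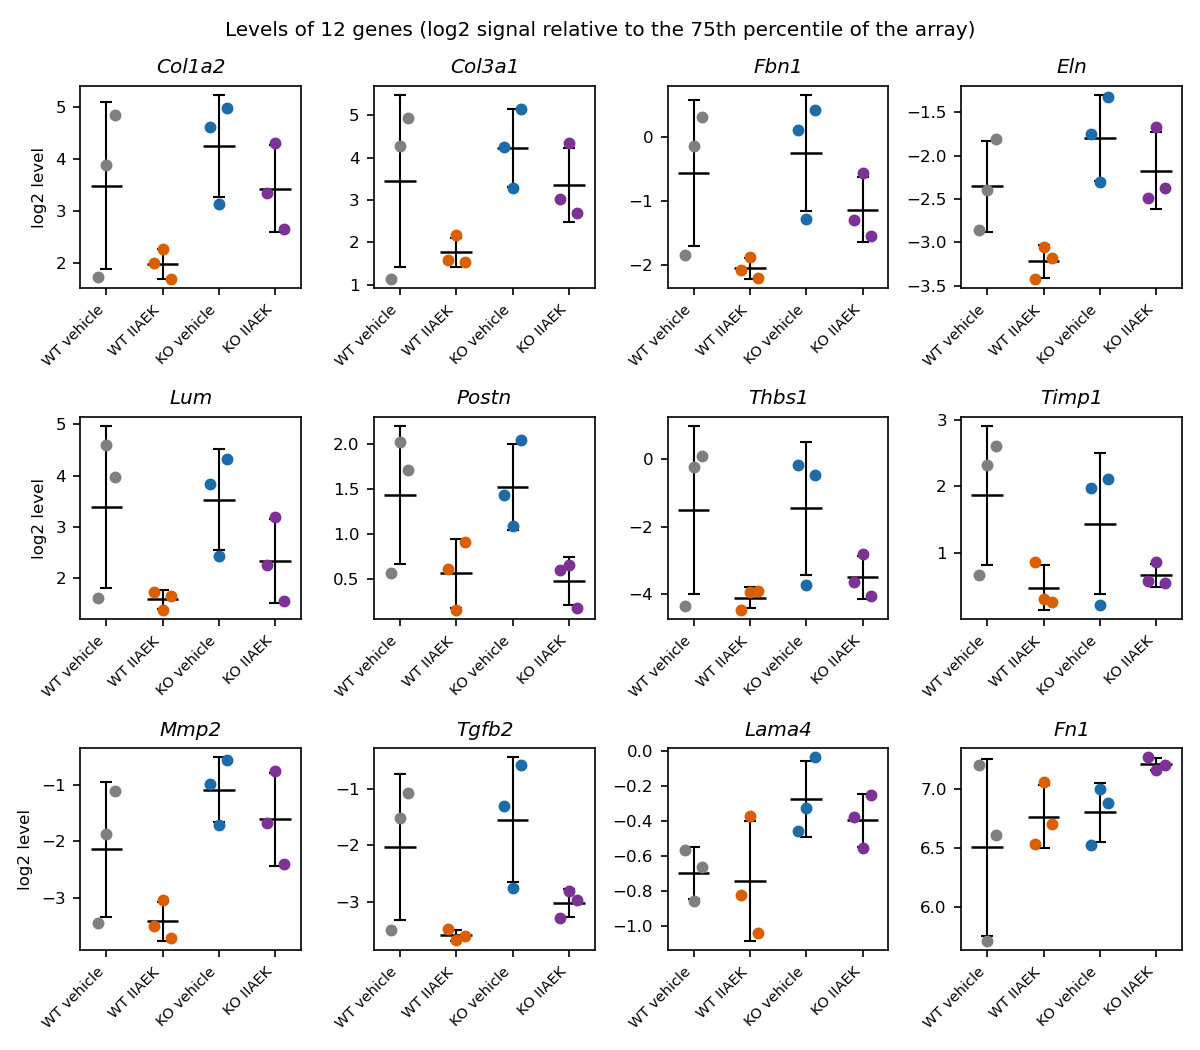
Log2 level relative to the 75th percentile of the array (y axis, separate for each gene) of 12 genes in the 4 groups; points are arrays in replicate order from left to right, and lines are the mean ± SD of 3 arrays. In the first 10 panels the wild-type (WT) IIAEK arrays lie close together, while 1 vehicle array of each genotype lies apart from the other two in most panels; Lama4 and Fn1 do not show this order.

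The 5 other collagen genes also had lower means with IIAEK in both genotypes and higher means in the knockout, and none was called. Col4a1 and Col4a2, the chains of basement membrane type IV collagen, are neighbours on opposite strands of chromosome 8. Their RefSeq starts lie 21 bases apart, and the annotated 5′ ends overlap. Col4a1 stood at 0.54, 1.74 and 2.49 with vehicle and 0.32, 0.63 and 0.28 with IIAEK in wild-type livers, and at 2.56, 1.26 and 2.46 with vehicle and 1.05, 1.52 and 0.90 with IIAEK in knockout livers, and the 4 arrays that stood apart exceeded the other 8. Its change was -1.18 (SE 0.46) in wild type and -0.94 (SE 0.46) in the knockout, with adjusted p of 0.393 and 0.664 in limma. Col4a2 stood at -0.041, 0.20 and 1.45 with vehicle and -0.29, 0.13 and -0.51 with IIAEK in wild-type livers, and at 1.43, 0.71 and 1.70 with vehicle and 0.62, 1.02 and 0.41 with IIAEK in knockout livers. All 6 knockout arrays exceeded the 3 wild-type IIAEK arrays for both genes, and under IIAEK the knockout was higher by 0.75 (SE 0.46) for Col4a1 and 0.91 (SE 0.38) for Col4a2.

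Col6a1, a chain of the beaded type VI microfibril, stood at 0.33, 1.72 and 2.51 with vehicle and 0.62, 0.31 and 0.35 with IIAEK in wild-type livers, and at 2.70, 1.28 and 2.85 with vehicle and 1.45, 2.38 and 0.85 with IIAEK in knockout livers. Its change with IIAEK was -1.10 (SE 0.58) in wild type and -0.72 (SE 0.58) in the knockout, and its partner Col6a2 had -1.27 (SE 0.66) and -0.75 (SE 0.66). Col14a1, a fibril-associated collagen, stood at -1.13, -0.55 and -0.028 with vehicle and -0.82, -0.89 and -1.14 with IIAEK in wild-type livers, and at 0.054, -0.36 and 0.47 with vehicle and -0.29, -0.034 and -0.52 with IIAEK in knockout livers. Here the knockout was higher than wild type both under vehicle, by 0.62 (SE 0.29), and under IIAEK, by 0.67 (SE 0.29), and wild-type vehicle replicate 3 was the only wild-type array within the knockout range.

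Among basement membrane genes, Nid1, which links laminin to type IV collagen, stood at 1.33, 3.06 and 3.79 with vehicle and 1.45, 1.52 and 1.54 with IIAEK in wild-type livers, and at 3.52, 2.31 and 4.03 with vehicle and 2.26, 3.03 and 1.88 with IIAEK in knockout livers. The 4 arrays that stood apart were the highest 4, and wild-type vehicle replicate 1 was the lowest. Lamb1, a laminin beta chain, stood at 0.78, 1.60 and 1.83 with vehicle and 0.84, 0.76 and 0.74 with IIAEK in wild-type livers, and at 1.67, 1.40 and 2.25 with vehicle and 1.18, 1.78 and 1.04 with IIAEK in knockout livers. The changes with IIAEK in wild type were -1.23 (SE 0.59) for Nid1 and -0.63 (SE 0.30) for Lamb1. Lama4, the laminin alpha chain of vessel walls, stood at -0.57, -0.86 and -0.66 with vehicle and -0.82, -0.37 and -1.04 with IIAEK in wild-type livers, and at -0.46, -0.33 and -0.034 with vehicle and -0.38, -0.56 and -0.25 with IIAEK in knockout livers. It did not share the split among vehicle arrays: the change with IIAEK was -0.048 (SE 0.19) in wild type and -0.12 (SE 0.19) in the knockout. Its 3 knockout vehicle arrays all exceeded the 3 wild-type vehicle arrays, by 0.42 (SE 0.19) (adjusted p 0.737 in limma). That order was found in 3.15% of all genes, and under IIAEK the difference was 0.35 (SE 0.19), with overlap.

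Of the 5 elastic fibre and cross-linking genes, 3 had wild-type IIAEK arrays entirely below the vehicle arrays. That order was found in 5.70% of all genes, and only 5 members in all showed it. Fbn1, the fibrillin of microfibrils that also hold latent transforming growth factor beta, stood at -1.85, -0.14 and 0.32 with vehicle and -2.09, -1.88 and -2.21 with IIAEK in wild-type livers, and at 0.11, -1.29 and 0.43 with vehicle and -1.29, -0.57 and -1.55 with IIAEK in knockout livers. Its 3 wild-type IIAEK arrays lay just below vehicle replicate 1 and well below the other two, with a change of -1.51 (SE 0.56) (adjusted p 0.393) that was -0.21 without the 4 arrays. Eln, elastin, stood at -2.85, -2.40 and -1.81 with vehicle and -3.42, -3.05 and -3.18 with IIAEK in wild-type livers, and at -1.75, -2.31 and -1.32 with vehicle and -2.49, -1.67 and -2.37 with IIAEK in knockout livers. The wild-type IIAEK arrays were the 3 lowest of 12, and Eln had the smallest p of the members for knockout versus wild type under IIAEK: 1.04 (SE 0.32), 2.06-fold higher, with an adjusted p of 0.628 in limma.

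Lox, the lysyl oxidase that starts collagen and elastin cross-links, stood at -4.33, -0.81 and -0.90 with vehicle and -5.39, -4.57 and -4.82 with IIAEK in wild-type livers, and at -1.04, -3.82 and -0.91 with vehicle and -3.32, -2.77 and -4.13 with IIAEK in knockout livers. It was above background on 2 of 3 wild-type IIAEK arrays and on all others. Its change with IIAEK in wild type, which includes the reading not above background, was -2.91 (SE 0.96) (adjusted p 0.393 in limma), against -1.48 (SE 0.96) in the knockout. Between wild-type vehicle replicate 1 and the IIAEK mean the gap was much smaller, -0.59, and the knockout value without the 4 arrays was 0.41. Loxl2 stood at -0.99, 0.18 and 0.85 with vehicle and -1.26, -0.87 and -0.93 with IIAEK in wild-type livers, and at 0.68, -0.047 and 1.02 with vehicle and -0.33, 0.16 and -0.66 with IIAEK in knockout livers, again with the 4 arrays highest. Loxl1, the elastin-directed family member, had a change of -1.50 (SE 0.70) in wild type and a knockout excess under IIAEK of 1.84 (SE 0.70), 3.58-fold.

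The 3 small leucine-rich proteoglycans, which bind collagen fibrils, had knockout differences under IIAEK from -0.0079 to 0.75. Lum, lumican, stood at 1.60, 4.59 and 3.97 with vehicle and 1.72, 1.37 and 1.64 with IIAEK in wild-type livers, and at 3.84, 2.42 and 4.33 with vehicle and 2.25, 3.20 and 1.54 with IIAEK in knockout livers. Its changes with IIAEK were -1.81 (SE 0.73) in wild type and -1.20 (SE 0.73) in the knockout. Dcn, decorin, stood at 6.60, 8.05 and 7.63 with vehicle and 6.91, 6.50 and 6.91 with IIAEK in wild-type livers, and at 7.50, 6.80 and 7.52 with vehicle and 6.75, 6.998 and 6.56 with IIAEK in knockout livers. It was lower with IIAEK by the means, -0.65 (SE 0.34) and -0.50 (SE 0.34), but under IIAEK the genotypes were close, with a difference of -0.0079 (SE 0.34). Bgn, biglycan, stood at -1.59, -0.88 and -0.63 with vehicle and -1.33, -1.14 and -1.32 with IIAEK in wild-type livers, and at -0.49, -0.81 and -0.66 with vehicle and -0.72, -0.30 and -0.93 with IIAEK in knockout livers. Its change with IIAEK was -0.23 (SE 0.24) in wild type and 0.0041 (SE 0.24) in the knockout, while all 6 knockout arrays exceeded the 3 wild-type IIAEK arrays, by 0.61 (SE 0.24) under IIAEK.

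Among the matrix glycoproteins, Thbs1, thrombospondin 1, which can activate latent transforming growth factor beta, stood at -4.37, -0.24 and 0.10 with vehicle and -4.48, -3.94 and -3.92 with IIAEK in wild-type livers, and at -0.18, -3.74 and -0.46 with vehicle and -3.65, -2.81 and -4.06 with IIAEK in knockout livers. The 4 arrays that stood apart lay from -0.46 to 0.10 and the other 8 far below, from -4.48 to -2.81. The change was -2.61 (SE 1.15) in wild type and -2.05 (SE 1.15) in the knockout with the 12 arrays, and 0.26 and 0.23 without the 4. Tnc, tenascin C, stood at -5.58, -3.30 and -2.82 with vehicle and -7.12, -5.47 and -6.68 with IIAEK in wild-type livers, and at -3.15, -4.53 and -2.62 with vehicle and -4.55, -4.10 and -5.32 with IIAEK in knockout livers. It was not well above background on any wild-type IIAEK array, and was so on 2 of 3 wild-type vehicle and 2 of 3 knockout IIAEK arrays. By the same bound the vehicle mean was at least 2.15-fold higher than the IIAEK mean in wild type. Under IIAEK the knockout mean was at least 1.27-fold higher than the wild-type mean. The first bound rests on vehicle replicates 2 and 3, since replicate 1, at -5.58, lay within the wild-type IIAEK range. Without the 4 arrays the wild-type change was -0.84, with the IIAEK readings not above background. Thbs2, above background on 10 arrays, had changes of -1.29 (SE 0.79) and -0.997 (SE 0.79).

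Postn, periostin, a cell-adhesion matricellular protein, stood at 0.56, 2.03 and 1.71 with vehicle and 0.62, 0.16 and 0.91 with IIAEK in wild-type livers, and at 1.44, 1.09 and 2.04 with vehicle and 0.60, 0.66 and 0.18 with IIAEK in knockout livers. All 3 knockout IIAEK arrays lay below all 3 knockout vehicle arrays, an order found in 6.25% of all genes. The change there was -1.05 (SE 0.38), or 2.07-fold lower, with the smallest p among the members for that comparison (adjusted p 0.664 in limma). Without the 4 arrays it was -0.61, among the 11 of 39 genes lower there, and in wild type it was -0.0013. Sparc, a collagen-binding glycoprotein, had changes of -0.67 (SE 0.38) and -0.40 (SE 0.38), and a knockout excess under IIAEK of 0.78 (SE 0.38). Fn1, fibronectin, made in bulk by hepatocytes as a plasma protein, ran the other way and was singled out after its values had been seen. It stood at 7.20, 5.71 and 6.61 with vehicle and 6.53, 7.05 and 6.70 with IIAEK in wild-type livers, and at 6.52, 6.999 and 6.88 with vehicle and 7.27, 7.16 and 7.20 with IIAEK in knockout livers. It was the only one of the 39 with a higher mean under IIAEK in both genotypes, 0.26 (SE 0.31) and 0.41 (SE 0.31). All 3 knockout IIAEK arrays exceeded the knockout vehicle arrays (adjusted p 0.668 in limma), an order found in 8.77% of all genes.

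All 6 protease and inhibitor genes had lower means with IIAEK in both genotypes and none was called. Timp1, the inducible inhibitor, stood at 0.67, 2.32 and 2.60 with vehicle and 0.87, 0.31 and 0.26 with IIAEK in wild-type livers, and at 1.98, 0.22 and 2.11 with vehicle and 0.58, 0.86 and 0.55 with IIAEK in knockout livers. The 4 arrays were the highest, every other array lay at or below 0.87, and the change was -1.38 (SE 0.55) in wild type and -0.77 (SE 0.55) in the knockout. Timp2, which also takes part in activating Mmp2, stood at 2.49, 3.25 and 3.99 with vehicle and 2.57, 2.40 and 2.35 with IIAEK in wild-type livers, and at 3.58, 2.79 and 3.71 with vehicle and 2.89, 3.31 and 2.72 with IIAEK in knockout livers. Its wild-type IIAEK arrays were close to vehicle replicate 1 and below all 6 knockout arrays. Timp3, the inhibitor bound to matrix, stood at 1.90, 2.19 and 2.18 with vehicle and 1.79, 1.53 and 1.67 with IIAEK in wild-type livers, and at 2.43, 1.97 and 2.13 with vehicle and 2.01, 2.01 and 2.08 with IIAEK in knockout livers. Its wild-type IIAEK arrays all lay below its vehicle arrays, with a small change of -0.43 (SE 0.16) (adjusted p 0.393 in limma), and they also lay below all 6 knockout arrays.

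Mmp2, the gelatinase A of stellate cells, stood at -3.44, -1.87 and -1.11 with vehicle and -3.49, -3.03 and -3.72 with IIAEK in wild-type livers, and at -0.99, -1.71 and -0.57 with vehicle and -1.67, -0.76 and -2.41 with IIAEK in knockout livers. All 6 knockout arrays exceeded the wild-type IIAEK arrays and wild-type vehicle replicate 1, and the knockout excess was 1.80 (SE 0.57) under IIAEK, 3.49-fold (adjusted p 0.628 in limma), and 1.05 (SE 0.57) under vehicle. Mmp13, the main interstitial collagenase of mice, stood at -3.57, -0.99 and -1.04 with vehicle and -3.11, -4.30 and -3.65 with IIAEK in wild-type livers, and at -1.37, -3.63 and -1.43 with vehicle and -2.60, -2.03 and -3.13 with IIAEK in knockout livers. In both genotypes 1 vehicle array lay among or below the IIAEK arrays; its change was -1.82 (SE 0.76) in wild type and -0.44 (SE 0.76) in the knockout, and the difference between these had the smallest interaction p of the members at 0.225. Mmp14, a membrane-type protease that activates pro-Mmp2, had changes of -0.30 (SE 0.31) and -0.46 (SE 0.31). Vim, vimentin, the intermediate filament of mesenchymal cells, stood at 2.19, 3.85 and 4.29 with vehicle and 2.12, 2.33 and 2.50 with IIAEK in wild-type livers, and at 4.10, 2.70 and 4.08 with vehicle and 2.59, 3.27 and 2.44 with IIAEK in knockout livers. The 4 arrays that stood apart were its highest 4, and the changes were -1.12 (SE 0.52) and -0.86 (SE 0.52).

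Other genes of matrix assembly and signalling were also mostly lower with IIAEK, with a smaller median. Of 109 such genes 94 were tested, and none was called in any of the 7 comparisons (limma), in which 0% to 0.0227% of all genes were. With IIAEK in wild type 69 of 94 were lower and 25 higher, with a median of -0.35 and an unadjusted p below 0.05 for 19 lower genes, against 6.63% of all genes; in the knockout 66 were lower, with a median of -0.27. Under IIAEK 84 of 94 were higher in the knockout, 45 of them without overlap, with a median of 0.45; of all genes 52.7% were lower and 13.0% higher without overlap. By role, the median in wild type was -1.47 for 12 further matrix proteases and plasminogen activators, -1.002 for the 4 platelet-derived growth factor ligands, -0.58 for 21 small proteoglycans and glycoproteins, -0.42 for 8 other collagens, -0.33 for 20 genes of the transforming growth factor beta pathway, -0.31 for 17 collagen-processing genes and -0.068 for 12 laminins and their partners.

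Ccn2, connective tissue growth factor, a target of transforming growth factor beta, stood at 2.70, 3.85 and 3.70 with vehicle and 0.92, 1.31 and 0.40 with IIAEK in wild-type livers, and at 3.99, 1.31 and 2.61 with vehicle and 1.53, 0.87 and 1.10 with IIAEK in knockout livers. All 3 wild-type IIAEK arrays were lower than all 3 vehicle arrays, with a change of -2.54 (SE 0.57) or 5.82-fold (adjusted p 0.393 in limma), and the knockout change was -1.47 (SE 0.57). Among the genes with the smallest p of their list for IIAEK averaged over genotypes were Col4a5 (a type IV chain, -1.21 (SE 0.41) in wild type), P4ha1 (a collagen prolyl hydroxylase, -0.54 (SE 0.19)), Pdgfb (a ligand of both receptors, -1.12 (SE 0.49)), Adamts1 (a proteoglycan-cutting protease, -1.05 (SE 0.36)) and Fbln2 (a fibulin, -0.72 (SE 0.24)). The adjusted p in wild type was 0.393 for each of these.

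Marker genes of liver cell types moved with the same arrays. Their levels were summed per array in multiples of the 75th percentile, which permits comparison between arrays for one list only. Stellate cell markers (14 of 15 tested, all above background on at least 1 array) summed to 92.8 to 112 on the 4 arrays that stood apart and to 54.4 to 76.7 on the other 8. By group the sum was 54.4 to 112 in wild-type vehicle, 55.5 to 68.0 in wild-type IIAEK, 74.9 to 104 in knockout vehicle and 63.6 to 76.7 in knockout IIAEK livers. With IIAEK, 12 of 14 stellate markers were lower in wild type, with a median log2 change of -0.23, and 11 of 14 in the knockout, with -0.22. Macrophage markers (11 of 11) summed to 375 to 483 on the 4 arrays against 151 to 304, and bile duct markers (8 of 8) to 30.3 to 63.1 against 9.75 to 13.1. Hepatocyte markers (12 of 12) ran the other way, 4406 to 5517 against 5812 to 8837, as did sinusoidal endothelium markers (10 of 10), 64.8 to 77.3 against 84.6 to 94.4. By median deviation both of these lists overlapped. The hepatocyte median ran from -0.45 to -0.074 against -0.094 to 0.52, and the sinusoidal endothelium median from -0.51 to 0.12 against -0.090 to 0.22. The part of these cell types in the matrix values was not tested.

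**Figure D5:**
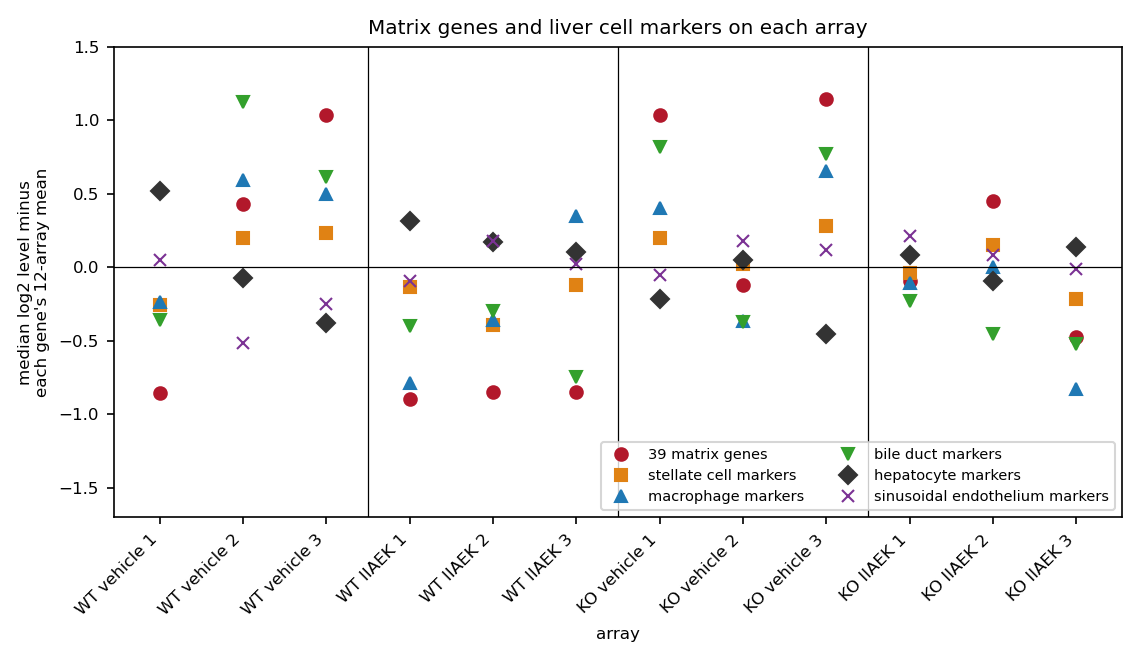
Median deviation of the log2 level from each gene's 12-array mean (y axis) on each array (x axis, 4 groups separated by lines) for the 39 matrix genes and 5 marker lists. Matrix, macrophage and bile duct medians are above 0 together on wild-type (WT) vehicle replicates 2 and 3 and knockout (KO) vehicle replicates 1 and 3, while the hepatocyte median is below 0 on those 4 arrays.

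The remaining marker lists overlapped between the 4 arrays and the other 8 or were set by single arrays. Smooth muscle markers (9 of 10 tested, Lmod1 not above background on any array) summed to 22.4 to 29.5 against 13.4 to 25.6, portal fibroblast markers (8 of 8) to 14.5 to 22.8 against 10.73 to 17.9, mesothelium markers (6 of 7 on the array) to 1.31 to 1.88 against 0.658 to 2.05, and red cell markers (6 of 7) to 900 to 1079 against 287 to 1351. Pancreas markers (9 of 12) summed to 13.3 to 24.1 against 17.7 to 40.1, and their median deviation was 2.90 on wild-type vehicle replicate 1. Small intestine markers (7 of 10) summed to 86.3 to 176 against 121 to 181, with a median deviation of 2.21, 4.46 and 0.75 on the 3 wild-type vehicle arrays. Under IIAEK, where the matrix genes were higher in the knockout, the stellate sum was 63.6 to 76.7 in the knockout and 55.5 to 68.0 in wild type, the macrophage sum 153 to 246 and 151 to 304, the bile duct sum 11.7 to 13.1 and 10.6 to 12.8, and the portal fibroblast sum 14.6 to 17.9 and 11.6 to 12.8. The smooth muscle sum was also higher in the knockout without overlap, 19.1 to 20.6 against 13.4 to 16.2. Lower without overlap were the sums of red cell markers, 287 to 353 against 480 to 1351, sinusoidal endothelium markers, 84.6 to 89.1 against 90.1 to 92.8, and small intestine markers, 121 to 155 against 169 to 181. The hepatocyte, mesothelium and pancreas sums overlapped between the genotypes. The part of these markers in the genotype difference was not tested.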

How the data were processed

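Liver RNA from 12 mice was labelled with Cy3 and hybridised to 1-colour arrays. The authors deposited scanner files with processed intensity per spot, background-corrected per the file headers by Agilent Feature Extraction 10.7.3.1 (design build mm9). They also deposited a table of log2 values, which matched log2 intensity scaled to the 75th percentile and centred per probe (r 0.99998 or higher on every array). Here spots of a probe were averaged, control spots left out, log2 intensity taken minus the array's 75th percentile, and the brightest probe kept per gene; symbols came from RefSeq (32994 of 56605 probes). Of the 39 genes, 17 had several probes; in 11 of these at least 2 probes were above background on all arrays, and all 11 had probes of like sign. Genes well above background on all 3 arrays of a group were tested in limma 3.58.1 (R 4.3.3), with 1 mean per group over 12 arrays, in 7 comparisons, two-sided, with Benjamini-Hochberg adjustment (threshold 0.05). The fit was tested on simulated data with independent noise, gene variances capped at their median and no split among vehicle arrays. That test therefore does not show how well the fit could call the 39 genes. The number of arrays limits the precision. Values on each array are given for up to 3 genes per role with the smallest p for IIAEK averaged over genotypes and the 2 with the smallest p per comparison. Of the further matrix lists, the called genes or else the 1 with the smallest p were named, except a gene that is not reported here. The 39 genes and all lists were chosen with earlier results of these data known. The alternatives tried were another background correction, quantile scaling, the deposited table, other filters and probe rules, slide and replicate blocks, slide 2 alone, array weights, other variance settings and leaving out arrays.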

Additional observations from a re-analysis of the deposited data

How the results depend on the processing

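None of the 39 genes was called with all 12 arrays, so no call could be lost. Over 273 values (39 genes in 7 comparisons), 58 gained a call without wild-type vehicle replicate 1, 37 with array weights and 10 without knockout vehicle replicate 2. The shares of all genes called in these fits are given below. Several settings left 0 members called in each comparison they were run for, with medians within the spread of the array medians (0.64). They were normexp correction, quantile scaling, the deposited table, other filters on dim probes and the mean over probes. Also among them were the slide as a block, trended or robust variances and fits of only the groups compared. The filter for signal well above background on all 12 arrays tested 35 members, without Col5a2, Lox, Thbs2 and Tnc. Array weights gave 2 called lower for IIAEK in the knockout, against 3.65% of all genes, and 35 averaged over genotypes, against 30.6%. On slide 2 alone, the median difference between genotypes under vehicle was -0.26 and the interaction median 1.01, against -1.06 on slide 1. Leaving out the 4 vehicle arrays was chosen after seeing the data. It kept the vehicle arrays that lay with the IIAEK arrays, so small IIAEK medians follow from the choice. These medians became -0.024 in wild type, 0.13 in the knockout and 0.064 averaged. Leaving out each array in turn gave median ranges of -1.69 to -0.69 for IIAEK in wild type, -1.19 to -0.42 in the knockout, -1.21 to -0.72 averaged, -0.024 to 0.85 for the genotypes under vehicle, 0.55 to 0.98 under IIAEK, 0.37 to 0.84 averaged and 0.0017 to 0.82 for the interaction; called members ran from 0 to 26 for IIAEK in wild type and 0 to 32 averaged, and stayed at 0 elsewhere. The highest counts came without wild-type vehicle replicate 1, when 14.9% of all genes were called in wild type and 24.9% averaged. Without knockout vehicle replicate 2, 10 members were called averaged over genotypes, against 9.86% of all genes. Both of these vehicle arrays lay with the IIAEK arrays, so more calls follow from leaving them out or giving them low weights. Replicate numbers did not pair the arrays (5 of 12 same-numbered pairs correlated above 0.1, r -0.55 to 0.65); with the replicate number as a block 0 of 39 were called in each comparison, with the IIAEK median in wild type at -1.10. Col5a2 and Tnc, below background on all wild-type IIAEK arrays, have only bounds there.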
